A study of Mus musculus with 8 samples.

Results

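The genes that make, take up, store and export cholesterol were measured in whole testes of Iqch mutant and wild-type mice. The set holds 34 genes picked from a list of names: 19 enzymes of the synthesis pathway, 5 genes that control it through the SREBP transcription factors, and 10 genes of uptake, storage and export. The list was drawn up with results of these libraries in view, and Abca1, Apoe, Apoc1 and Lrp1 are among the genes that the study itself singled out from them, so their changes are a description and no independent evidence. All 34 had a row among the 17127 genes of the deposited table of counts per 1000000 reads (CPM), where a gene's reads are divided by all reads of that library that fell on the genes of the table.

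Iqch encodes an IQ motif-containing protein that is made mainly in the testis, and the study asked how its loss alters gene expression during spermatogenesis. The mutants (genotype Iqch-/-) carried small frameshift deletions in a late coding exon, made by CRISPR-Cas9 in zygotes of the B6CBAF1 hybrid background, and were homozygous. The controls were wild-type mice, and all were adult males of 4 months. The deletion is constitutive, so it is present in every cell type of the testis, the study kept 2 edited lines, and the labels do not say from which of them each mouse came, though the study's own plot of read coverage over Iqch names the line Iqch mu7. The 8 labelled samples are 4 mice of each genotype. The analysis used 7 libraries, 1 from each of wild-type mice 1 to 4 and of Iqch mutants 1, 2 and 4, while Iqch mutant 3 was not analysed here. The study set aside 1 mutant sample as an outlier, so the mutant spread behind every FDR is that of the libraries that were kept. In the controls Iqch itself averaged 207.8 ± 11.3 CPM (SD, n = 4), against 67.3 ± 2.25 CPM (SD, n = 3) among the mutants, whose range lay wholly below.

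Cells build cholesterol from acetyl-CoA through mevalonate, the isoprenoid diphosphates, squalene and lanosterol, and then trim lanosterol down to cholesterol. When sterol in the endoplasmic reticulum is low, SCAP escorts the SREBP proteins to the Golgi for cleavage, and the freed fragments switch on the synthesis genes, whereas INSIG proteins hold SCAP back when sterol is plentiful. When oxysterols accumulate, the liver X receptors raise the genes that load cholesterol onto lipoproteins. In the testis, Leydig cells use cholesterol for testosterone, Sertoli cells take up the lipid of shed germ cells, and germ cells make sterol intermediates of their own.

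Across these genes, transcripts were mostly more abundant in the mutant. With limma on log2(CPM + 0.1) and a Benjamini-Hochberg false discovery rate (FDR) below 0.01, 25 of the 34 genes were higher, 1 was lower and 8 were not called. Among all 17126 genes tested, 36.3% were called higher and 14.2% lower, so a rise is common in this comparison. The median log2 change of the 34 genes was 0.69, against 0.12 for all genes. Without the 4 genes singled out earlier, 21 of the other 30 were higher, with a median of 0.64. After division by median-of-ratios size factors, which moved the median of all genes to -0.01 (a shift of 0.13), 23 of the 34 were higher and 1 lower, with a median of 0.55, while 27.0% of all genes were then called higher and 25.1% lower. In 26 of the 34 genes every mutant library lay above every wild-type library, as in 42.8% of all genes, and in 1 gene every mutant library lay below, as in 19.5% of all genes. More than a doubling (a called log2 change over 1) was found in 11 of the 34 genes and in 8.79% of all genes. With 4 mice against 3 there are 35 ways of assigning the libraries, so an exact two-sided permutation test of a single gene cannot give a p below 0.0286. Of the 34 genes 22 reached that value, but the same count was not made over all genes, so it does not set these genes apart.

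**Figure D1:**
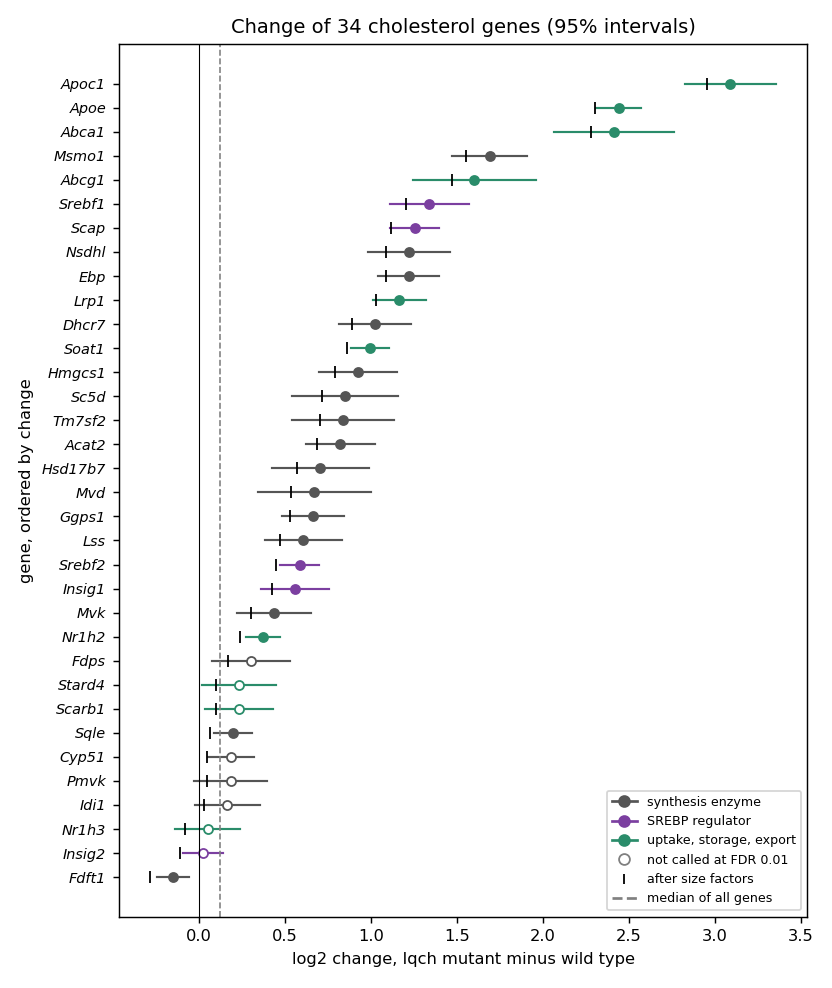
Log2 change of each of the 34 genes, Iqch mutant minus wild type, with 95% intervals from limma (4 wild-type and 3 mutant libraries); colour gives the role, open circles are genes not called at FDR 0.01, black ticks the change after size factors and the dashed line the median of all genes. Apoc1, Apoe and Abca1 stand apart at log2 changes of 2.42 to 3.09, and Fdft1 is the only gene called lower, at -0.15.

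These are bulk libraries, in which more RNA per cell and more cells of a type cannot be told apart. CPM values are also shares of a library, so those of one cell type can rise when other cells give less RNA. The study reported smaller testes in the mutants, with fewer cells of each DNA content and a lower proportion of haploid cells. The cell type markers moved with genotype. Of 8 Leydig cell markers 7 were higher, with a summed level of 1159 to 1380 CPM in wild type and 4694 to 4842 CPM in the mutants. All 8 macrophage markers were higher (summed 85.8 to 94.5 CPM against 257 to 295 CPM), of which Cd14 was tested only through its level in the mutants (0.826 to 1.53 CPM against 3.05 to 4.83 CPM). All 7 measured Sertoli cell markers were higher too (287 to 309 CPM against 509 to 551 CPM), and 5 of the 7 were still called higher after size factors. In contrast, 8 of 9 spermatid markers were lower (21920 to 23190 CPM against 14040 to 16100 CPM). No measured marker was at 0, and germ cell, Leydig and Sertoli markers were present in every library, in keeping with testis as the labelled tissue. The part that these shifts had in the values given here was not tested. By the steps of the CPM values, the reads that fell on genes of the table numbered 32064384 to 37551057 per library. These numbers leave out all other reads, so they are not the sequencing depth, and they could not be checked as counts.

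Among the promoters of the synthesis genes, short motifs of known sterol control were looked up first, since several of these genes changed together. The motifs were the sterol regulatory element of SREBP (TCACNCCAC), the CCAAT box bound by NF-Y (CCAAT) and the Sp1 box (GGGCGG), each on both strands, in RefSeq promoter windows of 250 bases before to 50 bases after the start (GRCm38.p6). Of the 34 genes 27 had an entry. The stretches below are the 150 bases before the RefSeq start, 5′ to 3′ on the gene's strand, for 4 enzymes that rose strongly (Hmgcs1, Msmo1, Nsdhl, Ebp) and 2 that were not called (Idi1, Cyp51). Capitals mark the sterol regulatory element in Hmgcs1 and every CCAAT box, written CCAAT or, on the other strand, ATTGG. Located by exact match in GRCm39, they lie at chr13:120151737-120151886 (plus strand, Hmgcs1), chr8:65186613-65186762 (minus, Msmo1), chrX:71961977-71962126 (plus, Nsdhl), chrX:8059752-8059901 (minus, Ebp), chr13:8935492-8935641 (plus, Idi1) and chr5:4154698-4154847 (minus, Cyp51).
Hmgcs1: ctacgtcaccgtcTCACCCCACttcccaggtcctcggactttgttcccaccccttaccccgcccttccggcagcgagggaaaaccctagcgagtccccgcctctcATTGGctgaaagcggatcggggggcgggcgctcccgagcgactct
Msmo1: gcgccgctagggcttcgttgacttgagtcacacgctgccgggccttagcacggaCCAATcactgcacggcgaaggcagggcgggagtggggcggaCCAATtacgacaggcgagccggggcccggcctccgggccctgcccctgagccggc
Nsdhl: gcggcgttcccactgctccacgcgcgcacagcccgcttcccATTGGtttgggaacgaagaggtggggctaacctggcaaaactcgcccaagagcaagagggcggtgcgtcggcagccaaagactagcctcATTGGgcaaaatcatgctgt
Ebp: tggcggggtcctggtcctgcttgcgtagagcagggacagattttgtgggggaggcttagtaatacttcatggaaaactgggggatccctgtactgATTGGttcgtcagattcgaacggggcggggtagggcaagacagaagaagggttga
Idi1: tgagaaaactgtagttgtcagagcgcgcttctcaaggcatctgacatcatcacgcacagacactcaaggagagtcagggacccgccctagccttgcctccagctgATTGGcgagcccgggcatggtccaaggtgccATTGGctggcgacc
Cyp51: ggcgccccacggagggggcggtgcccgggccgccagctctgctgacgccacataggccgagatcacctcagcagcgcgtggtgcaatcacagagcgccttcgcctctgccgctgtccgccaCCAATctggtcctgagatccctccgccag

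The 27 genes have 38 promoters in the table, since some have several starts. The sterol regulatory element in this spelling was found in 1 of them, that of Hmgcs1 (2.63%, against 1.24% of all 32851 promoters). A CCAAT box was found in 55.3% of the 38 promoters, against 37.4% of all promoters, and the Sp1 box in 68.4%, against 35.7%. Counted by gene, with any of its promoters, 20 of the 27 genes held a CCAAT box and 22 the Sp1 box. Of the 16 synthesis enzymes with an entry, 15 held a CCAAT box, with Acat2 the exception. Of the 5 SREBP regulators 4 held one, with Scap the exception, but of the 6 uptake, storage and export genes with an entry only Soat1 did. Idi1, Msmo1 and Nsdhl each had 2 CCAAT boxes in the printed stretch, and their log2 changes were 0.16, 1.69 and 1.22.

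The synthesis enzymes were considered next, in pathway order. Of the 19, 14 were higher, 1 was lower and 4 were not called, with a median log2 change of 0.67. Their summed level was 819.8 to 897 CPM in wild type and 1012 to 1158 CPM in the mutants. Leaving out each library in turn gave 12 to 16 enzymes called higher. The plot of enzymes by library shows that the rise was uneven along the pathway. Counted in 3 stretches, a division chosen after the values were seen, the 8 enzymes up to farnesyl and geranylgeranyl diphosphate had a median log2 change of 0.55 with 5 called higher. The 3 enzymes that make squalene and lanosterol had a median of 0.20, with 2 called higher and 1 lower. The 8 enzymes from lanosterol onward had a median of 0.94 with 7 called higher, the exception being Cyp51.

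**Figure D2:**
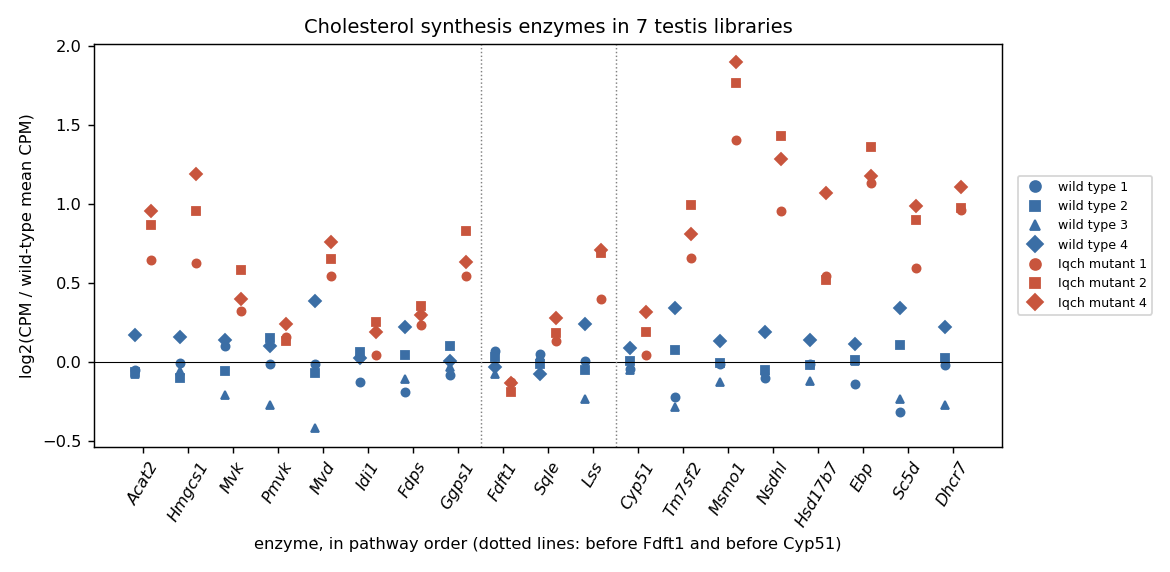
Level of each of the 19 synthesis enzymes in each of 7 testis libraries, as log2 of its CPM over the wild-type mean, in pathway order; blue marks are wild-type and red marks mutant libraries, with the same shape for the same number in the labels. Msmo1, Nsdhl, Ebp and Dhcr7 rise furthest, and Fdft1 is the enzyme whose 3 mutant libraries all lie below the 4 wild-type libraries.

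The first steps condense acetyl-CoA. Acat2, the cytosolic thiolase that makes acetoacetyl-CoA, measured 11.3, 11.2, 11.1 and 13.2 CPM in wild-type mice 1 to 4 and 18.3, 21.3 and 22.7 CPM in mutants 1, 2 and 4. Its log2 change was 0.82 (SE 0.09, FDR 7.55e-06, limma). Hmgcs1, the HMG-CoA synthase of the cytosol that carries the printed sterol regulatory element, read 65.4, 61.3, 63.1 and 73.3 CPM in wild type and 101, 128 and 149.9 CPM in the mutants, a rise of 0.93 on the log2 scale (SE 0.10, FDR 7.77e-06, limma). In both genes mutant 1 was the lowest mutant library, and in both it lay above every control.

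The mevalonate steps moved less. Mvk, mevalonate kinase, averaged 12.4 ± 1.36 CPM (SD, n = 4) among controls and 16.8 ± 1.55 CPM (SD, n = 3) among mutants (log2 change 0.44, SE 0.10, FDR 0.00188, limma), and its FDR was 0.0145 after size factors, which ends the call. Pmvk, the phosphomevalonate kinase that acts next, was not called, with a log2 change of 0.18 and a 95% interval of -0.03 to 0.39. Mvd, which decarboxylates the product to isopentenyl diphosphate, ranged from 5.23 to 9.16 CPM in wild type and from 10.2 to 11.8 CPM in the mutants (log2 change 0.67, SE 0.15, FDR 0.00183, limma). The wild-type spread of Mvd was among the widest of the enzymes, and yet the groups did not overlap. Idi1, the isomerase that balances the isoprenoid building blocks, was not called at 0.16 (95% interval -0.02 to 0.35). Fdps, which makes farnesyl diphosphate, read 7.75, 9.09, 8.19 and 10.3 CPM in wild type and 10.4, 11.3 and 10.9 CPM in the mutants. The Fdps groups did not overlap, but the margin was narrow and its FDR of 0.0228 (limma) missed the threshold. Without wild-type mouse 4 the FDR was 0.00478. Ggps1, which makes geranylgeranyl diphosphate at the branch toward protein prenylation, was 13.1 ± 0.689 CPM (SD, n = 4) and 20.8 ± 2.14 CPM (SD, n = 3), a log2 change of 0.67 (SE 0.08, FDR 1.78e-05, limma).

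Fdft1 (chr14:63382189-63417027, minus strand, GRCm39), squalene synthase, commits farnesyl diphosphate to sterols, and it was the enzyme that ran against the others. Wild-type mice 1 to 4 had 409, 399, 371 and 382 CPM of Fdft1, and mutants 1, 2 and 4 had 357, 342 and 355 CPM. Every mutant library was below every control, with a log2 change of -0.15 (SE 0.04, FDR 0.0084, limma), and of -0.28 after size factors (FDR 0.000175). The call is thin on the CPM scale: it was lost when any 1 of mutants 1, 2 or 4 or of wild-type mice 1 or 2 was left out, with FDRs of 0.0139, 0.0394, 0.0223, 0.0281 and 0.0288 in that order. Fdft1 shares exon positions with Ctsb, the lysosomal protease cathepsin B on the opposite strand, over 24.8% of its exon length. Ctsb rose by a log2 change of 1.68 (FDR 2.06e-09, limma), and since the strand setting of the counting is not given in the sources used here, reads in the shared stretch cannot be told apart. In all, 12 of the 34 genes shared some exon positions with another gene of the table. Acat2 shares 5.48% of its exon length with Tcp1 on the opposite strand, which averaged 1260 CPM (log2 change -0.20). Nsdhl shares 8.97% with Cetn2, also on the opposite strand, whose log2 change was 0.50.

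Sqle, the squalene epoxidase, had 102, 97.4, 101 and 93.1 CPM in wild type and 108, 112 and 119 CPM in the mutants, a small rise (log2 change 0.20, SE 0.05, FDR 0.00385, limma) that was not called after size factors (0.06, FDR 0.27). Washc5 on the opposite strand shares 5.29% of the exon length of Sqle and had a log2 change of 0.85 (FDR 6.34e-07, limma). Lss, which closes squalene epoxide into lanosterol, went from 29.5 ± 4.06 CPM (SD, n = 4) to 44.8 ± 5.20 CPM (SD, n = 3), a log2 change of 0.61 (SE 0.10, FDR 0.000236, limma). The 3 enzymes of this stretch thus covered a fall, a small rise and a clear rise.

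Cyp51, the lanosterol demethylase, is known for high transcript levels in male germ cells. It read 97.4, 101, 96.9 and 107 CPM in wild type and 104, 115 and 125 CPM in the mutants, so mutant 1 fell within the controls. Its log2 change of 0.19 (95% interval 0.05 to 0.32) was not called at an FDR of 0.0192 (limma), though without mutant 1 the FDR was 0.00291. Akap9 on the opposite strand shares 21.1% of the exon length of Cyp51.

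The 7 enzymes after Cyp51 all rose, with a median log2 change of 1.02, and each held its call after size factors and when any 1 library was dropped. Their summed level was 91.9 to 121 CPM in wild type and 201 to 249 CPM in the mutants. Msmo1 (chr8:65170603-65186830, minus strand), the methylsterol monooxygenase that oxidises the methyl groups at carbon 4 of the ring, had 18.9, 19.02, 17.4 and 20.9 CPM in wild type and 50.6, 65.0 and 71.0 CPM in the mutants. This 3.26-fold difference (log2 change 1.69, SE 0.10, FDR 3.27e-08, limma) was the steepest of the 19 enzymes, and 2.32% of all genes changed more in the same direction. Nsdhl (chrX:71961712-72002129, plus strand), the dehydrogenase that acts in the same demethylation complex, had 10.2, 10.6, 10.5 and 12.5 CPM in wild type and 21.3, 29.6 and 26.7 CPM in the mutants, a 2.36-fold rise (FDR 1.01e-06, limma). Hsd17b7, the ketoreductase that completes that step, had 7.15, 7.14, 6.63 and 7.96 CPM in wild type and 10.5, 10.4 and 15.1 CPM in the mutants (log2 change 0.71, SE 0.13, FDR 0.000435, limma). The 3 demethylation genes therefore all rose, and for Hsd17b7 mutant 4 stood well above the other mutants.

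Ebp, the isomerase that shifts the ring double bond, had 11.8, 13.2, 13.1 and 14.1 CPM in wild type and 28.5, 33.5 and 29.5 CPM in the mutants, a 2.34-fold rise (log2 change 1.22, SE 0.08, FDR 7.65e-08, limma). Dhcr7, the reductase of the last step in one branch, had 20.8, 21.5, 17.5 and 24.7 CPM in wild type and 41.2, 41.6 and 45.6 CPM in the mutants, a 2.02-fold rise (log2 change 1.02, SE 0.10, FDR 1.51e-06, limma). Sc5d, the sterol desaturase between them, rose by 0.85 (SE 0.14, FDR 0.000199, limma) from a wide wild-type range of 16.5 to 26.1 CPM to 31.1 to 40.8 CPM. Tm7sf2, a sterol reductase that acts just after Cyp51, rose by 0.84 (SE 0.14, FDR 0.000169, limma). Tm7sf2 shares 10.8% of its exon length with Vps51 on the same strand, and the log2 change of Vps51 was 0.12 (FDR 0.0856, limma). In none of these 4 genes did the groups overlap.

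To compare levels among enzymes, each wild-type mean was divided by the length of the gene's merged exons. Fdft1 led with 81.6 CPM per kb, followed by Cyp51 with 16.9, Hmgcs1 with 12.5, Sqle with 11.1 and Pmvk with 4.08 CPM per kb, and Mvk was lowest with 1.11 CPM per kb. The median log2 change of these 5 most abundant enzymes was 0.18, and that of the other 14 was 0.76, but the cut at 5 was not planned. Hmgcs1 was an abundant enzyme that nearly doubled, whereas the scarcer Idi1, Fdps and Mvk changed by only 0.16, 0.30 and 0.44. Over all 19 enzymes Spearman's rho between level and change was -0.24, a weak relation among genes that share the same 7 libraries. Fdft1 alone took 42.5% to 46.8% of the summed enzyme CPM in wild type and 30.7% to 35.3% in the mutants. Without it the summed level of the other 18 enzymes was 449 to 515 CPM in wild type and 654 to 803 CPM in the mutants.

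**Figure D3:**
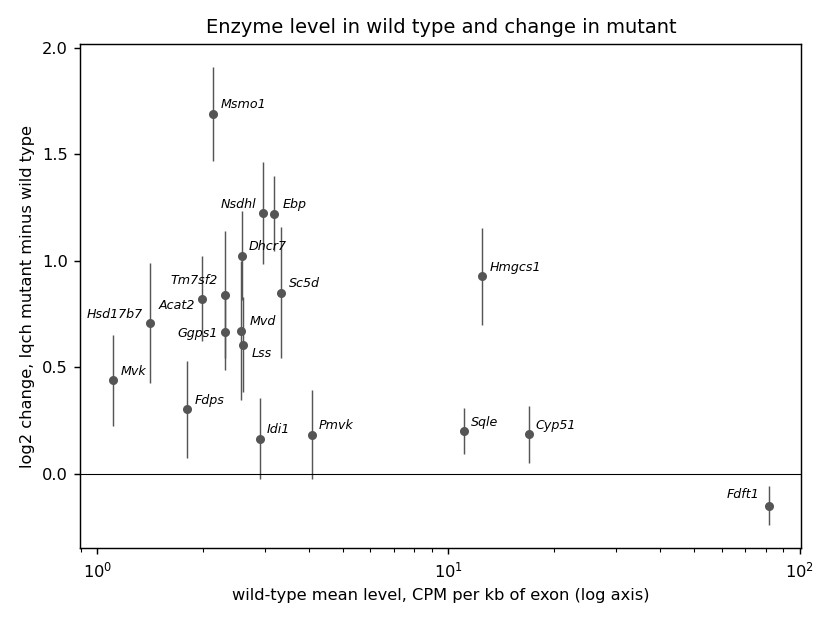
Wild-type mean level of each synthesis enzyme (CPM per kb of merged exon, log axis) against its log2 change, Iqch mutant minus wild type, with 95% intervals from limma. Fdft1 lies far to the right at 81.6 CPM per kb and below 0, and Hmgcs1, at 12.5 CPM per kb and 0.93, is the one abundant enzyme with a large change.

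Enzyme levels also differed between libraries of one genotype. Wild-type mouse 4 had the highest wild-type level in 14 of the 19 enzymes and wild-type mouse 3 the lowest in 11. Mutant 1 had the lowest mutant level in 16 of the 19, and mutant 4 the highest in 11. This order was not counted over all genes, so it does not set the enzymes apart from other genes. The size factor was 1.036 for mutant 1, 1.066 for mutant 2 and 1.061 for mutant 4. A typical gene thus also had its lowest mutant CPM in mutant 1. Each mouse gave 1 library.

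Of the 5 regulators, 4 rose and none fell, with a median log2 change of 0.59, and their summed level was 165 to 179 CPM in wild type and 258 to 268 CPM in the mutants. Srebf2 encodes SREBP-2, the factor that chiefly drives cholesterol synthesis. Its levels were 53.4, 48.4, 47.9 and 51.4 CPM in wild type and 73.3, 75.5 and 77.5 CPM in the mutants (log2 change 0.59, SE 0.05, FDR 1.03e-06, limma). Srebf1, which encodes the SREBP-1 forms that mainly serve fatty acid synthesis, had 16.3, 14.3, 12.99 and 18.4 CPM in wild type and 37.2, 42.9 and 37.2 CPM in the mutants, a 2.53-fold rise (log2 change 1.34, SE 0.11, FDR 3.16e-07, limma). Srebf1 therefore rose more than Srebf2. The ratio of the CPM values of the pair within a library went from 0.307 ± 0.0362 (SD, n = 4) to 0.518 ± 0.0451 (SD, n = 3), and no mutant overlapped the controls (exact two-sided permutation p = 0.0286, the smallest this design can give).

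Scap (chr9:110158229-110214024, plus strand), the escort of the SREBPs, showed the tightest mutant values of the regulators, with 24.6, 23.4, 22.0 and 26.3 CPM in wild type and 58.2, 56.5 and 57.6 CPM in the mutants. The rise was 2.39-fold (log2 change 1.25, SE 0.06, FDR 1.07e-08, limma). Scap and Sc5d lie on chromosome 9, which also carries Iqch. Insig1, itself a classical SREBP target that retains SCAP in the endoplasmic reticulum, had 21.8, 20.9, 17.9 and 24.7 CPM in wild type and 30.6, 31.0 and 32.3 CPM in the mutants (log2 change 0.56, SE 0.09, FDR 0.000167, limma). Its partner Insig2 had 61.6, 57.7, 63.9 and 58.3 CPM in wild type and 58.9, 61.9 and 63.2 CPM in the mutants, and the groups overlapped. The change of Insig2 was 0.02 (95% interval -0.09 to 0.14, FDR 0.72, limma), and after size factors it was -0.11 (FDR 0.0752). The ratio of Insig1 to Insig2 within a library was 0.355 ± 0.0592 (SD, n = 4) in wild type and 0.511 ± 0.0095 (SD, n = 3) in the mutants, with no overlap and an exact two-sided permutation p of 0.0571.

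Of the 10 genes of uptake, storage and export 7 were higher, none was lower and 3 were not called, the median log2 change was 1.08, and 5 more than doubled. These values lean on Abca1, Apoe, Apoc1 and Lrp1, which had been singled out on these libraries: of the other 6 genes 3 were higher, with a median of 0.30 and the highest change at 1.60 (Abcg1), below the 1.69 of the enzyme Msmo1. The summed level of those 6 was 238 to 289.6 CPM in wild type and 337 to 358 CPM in the mutants. The summed level of all 10 was 483 to 527 CPM in wild type and 1347 to 1564 CPM in the mutants. All 7 kept their calls after size factors and when any 1 library was dropped.

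**Figure D4:**
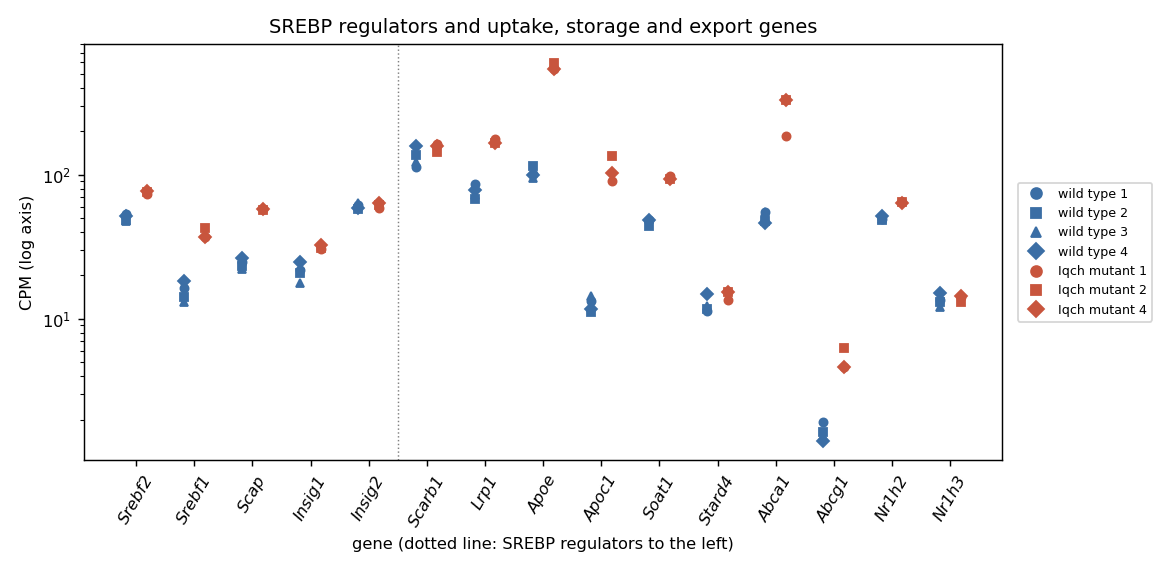
CPM (log axis) of the 5 SREBP regulators, left of the dotted line, and the 10 uptake, storage and export genes in each of 7 testis libraries; blue marks are wild-type and red marks mutant libraries, with the same shape for the same number in the labels. Apoe, Apoc1, Abca1 and Abcg1 are separated by wide gaps, Abca1 of mutant 1 lies well below that of mutants 2 and 4, and Insig2, Scarb1, Stard4 and Nr1h3 overlap between genotypes.

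The lipoprotein genes came first. Apoe (chr7:19430034-19434947, minus strand), the apolipoprotein by which cells hand lipid to lipoprotein receptors, had 102, 114.5, 94.9 and 100.2 CPM in wild type and 537, 596 and 541 CPM in the mutants. This was a 5.42-fold rise (log2 change 2.44, SE 0.06, FDR 6.15e-11, limma), and 0.671% of all genes rose more. Apoc1 (chr7:19422540-19427328, minus strand), its neighbour in the same gene cluster and a modulator of lipoprotein uptake, had 13.2, 11.1, 14.4 and 11.8 CPM in wild type and 89.96, 135 and 103 CPM in the mutants, an 8.65-fold rise (log2 change 3.09, SE 0.12, FDR 1.55e-09, limma). Both neighbours were thus far above the controls in every mutant, and only 0.28% of all genes rose more than Apoc1. The ratio of Apoc1 to Apoe CPM was 0.124 ± 0.0232 (SD, n = 4) in wild type and 0.195 ± 0.0298 (SD, n = 3) in the mutants, with an exact two-sided permutation p of 0.0571. Both genes are known to be abundant in macrophages, and the study named both among cholesterol metabolism genes altered in Leydig cells. The study did not measure Leydig cells apart: it assigned genes of whole-testis libraries to cell types from published gene lists and single-cell data. Markers of both cell types rose here as given above, and the part of either in these rises was not tested.

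The receptors differed from one another. Lrp1, a large endocytic receptor that takes up APOE-bearing particles, had 86.1, 67.4, 72.3 and 78.8 CPM in wild type and 178, 167 and 166 CPM in the mutants, a 2.24-fold rise (log2 change 1.16, SE 0.07, FDR 3.77e-08, limma). Scarb1, the HDL receptor by which Leydig and Sertoli cells take in cholesteryl ester, had 114, 136, 122 and 158 CPM in wild type and 163, 144 and 158 CPM in the mutants. Scarb1 overlapped between genotypes because wild-type mouse 4 was as high as the mutants, and its change of 0.23 (95% interval 0.04 to 0.43) was not called (FDR 0.0393, limma). Without that mouse the change was 0.32 (FDR 0.00133).

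Soat1, the acyltransferase that esterifies cholesterol for storage in droplets, nearly doubled, with 48.5, 44.2, 48.9 and 48.6 CPM in wild type and 98.0, 93.5 and 92.9 CPM in the mutants (log2 change 1.00, 95% interval 0.88 to 1.11, FDR 1.13e-08, limma). Stard4, a carrier that moves sterol through the cytosol, was not called (log2 change 0.23, 95% interval 0.02 to 0.45, FDR 0.0562, limma), and without wild-type mouse 4, its highest control, the change was 0.32 (FDR 0.00736).

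Export genes rose steeply. Abca1 (chr4:53030787-53159900, minus strand), the transporter that passes cholesterol to lipid-poor apolipoproteins, had 55.0, 47.8, 54.8 and 46.3 CPM in wild type and 185, 329 and 329.8 CPM in the mutants. Mutant 1 sat well below the other two, but still above 3 times the highest control, and the overall rise was 5.52-fold (log2 change 2.42, SE 0.16, FDR 7.64e-08, limma). Abcg1, which exports cholesterol to mature HDL, was the scarcest of the 34 genes, with 1.92, 1.63, 1.55 and 1.41 CPM in wild type and 4.63, 6.27 and 4.61 CPM in the mutants (log2 change 1.60, SE 0.17, FDR 3.44e-06, limma). Abcg1 was the one gene of the set that passed the minimum of 2.2 CPM in 2 libraries only through the mutants, so its difference is in part a condition of its being tested. Abca1 outran Abcg1: their ratio fell from 0.0319 ± 0.00308 (SD, n = 4) to 0.0194 ± 0.00556 (SD, n = 3), with an exact two-sided permutation p of 0.0286, the smallest possible.

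Both exporters are classical targets of the liver X receptors, whose own genes changed little. Nr1h2, which encodes the widely expressed LXR beta, had 49.2, 48.8, 49.3 and 51.4 CPM in wild type and 65.0, 64.5 and 63.4 CPM in the mutants, a modest but tight rise (log2 change 0.37, SE 0.05, FDR 1.73e-05, limma). Nr1h3, which encodes LXR alpha, had 13.4, 13.1, 12.02 and 15.1 CPM in wild type and 14.1, 13.1 and 14.4 CPM in the mutants, overlapping throughout. Its change was 0.05 (95% interval -0.14 to 0.24, FDR 0.635, limma) and turned to -0.08 after size factors.

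Other genes of sterol and lipid metabolism were read from 7 lists of 64 genes, of which 54 had a row. Of these 34 were higher, 6 lower and 14 not called, with a median log2 change of 0.50, while 36.3% of all genes were higher and 14.2% lower. After size factors 29 were higher and 12 lower, against 27.0% and 25.1% of all genes. The counts of the single lists below stand beside the same shares. The 9 SREBP targets of fatty acid synthesis had 8 higher and 1 lower, led by Scd1, the stearoyl-CoA desaturase, which rose by 1.72 on the log2 scale (FDR 2.98e-07, limma). Its list neighbour Acss2, the cytosolic acetyl-CoA synthetase, was lower by a log2 change of -0.18 (FDR 0.00834, limma), a call that was lost without any 1 of the 3 mutants or of wild-type mice 2 and 4. Of 8 genes of SREBP processing and sterol sensing 4 were higher, with Pgrmc1, a haem-binding partner of sterol enzymes, at 1.24 (FDR 2.70e-08, limma). Rnf139, a sterol-sensing ubiquitin ligase, was the 1 lower gene at -0.31 (FDR 1.07e-05, limma). The median log2 change of these 8 was 0.17. With size factors 3 of them were higher and 2 lower, with a median of 0.04, near the values of all genes. In the isoprenoid branch 5 of 10 were higher and none was called lower, with Pdss1 of coenzyme Q synthesis at 0.62 (FDR 0.000884, limma). After size factors 3 were higher and 3 lower, near the shares of all genes, and the summed level of the branch was 1.03-fold that of wild type.

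Of 13 genes of lysosomal and intracellular sterol transport 8 were higher and 2 lower. Lipa, the lysosomal acid lipase that frees cholesterol from its esters, went from 5.01 to 5.69 CPM in wild type to 16.3 to 18.2 CPM in the mutants (log2 change 1.64, FDR 1.71e-08, limma), whereas Osbpl1a, an oxysterol-binding protein of late endosomes, fell by 0.67 on the log2 scale (FDR 2.86e-07, limma). All 4 measured lipoprotein receptors and uptake genes were higher, though Mylip, the ubiquitin ligase that marks lipoprotein receptors for breakdown, passed the minimum of 2.2 CPM only through the mutants (1.52 to 1.81 CPM against 3.04 to 4.396 CPM). Among the 4 the scavenger receptor Cd36 had the largest change, 1.98 (FDR 1.10e-06, limma). Of 3 measured genes of ester storage and hydrolysis 1 was higher, the neutral ester hydrolase Nceh1 at 1.60 (FDR 4.93e-07, limma), and 1 was lower, hormone-sensitive lipase Lipe at -0.41 (FDR 5.73e-06, limma). Export and oxysterol genes had 4 of 7 higher and 1 lower. Abcg4, a half-transporter related to Abcg1, had 0.291 to 0.548 CPM in wild type and 2.41 to 2.76 CPM in the mutants (log2 change 2.56, FDR 2.01e-06, limma), and like Abcg1 it passed the minimum only through the mutants. Cyp46a1, the cholesterol 24-hydroxylase, was the lower gene at -0.61 (FDR 3.84e-05, limma). Enzymes that hydrolyse cholesteryl ester therefore moved in both directions.

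The markers are set beside these changes, though they cannot tell more cells of a type from more RNA per cell. Nor can they tell either from a smaller share of RNA from other cells. The most abundant Leydig cell marker, the hormone Insl3, had a log2 change of 2.75 (FDR 2.03e-13, limma). Its mean went from 438 to 2941 CPM, within a Leydig sum whose mean went from 1250 to 4785 CPM, so that sum leans on 1 gene. Star, which feeds cholesterol into steroid synthesis, was the Leydig marker that was not called (0.24, FDR 0.246). Lyz2, the macrophage marker with the highest mean over all libraries, had a change of 2.34, whereas Mrc1, the most abundant of that list in wild type, had one of 0.76. The changes were 0.83 for Aard of Sertoli cells and -0.60 for Prm2 of spermatids. Spermatocyte markers had 1 of 7 higher, and their summed level overlapped between genotypes (1310 to 1365 CPM against 1246 to 1360 CPM), with Piwil1 at -0.06 (FDR 0.315). After size factors 0 spermatocyte markers were higher and 2 lower, Piwil1 being one of them (-0.20, FDR 0.00513). Spermatogonial markers had 4 of 7 higher (summed 112 to 124 CPM against 166 to 193 CPM), and Uchl1 was at 0.29, but after size factors 1 of 7 was higher and Uchl1 was not called (FDR 0.0843). Endothelial markers had 2 of 4 higher (26.5 to 30.5 CPM against 40.7 to 42.5 CPM, Vwf at -0.21, not called on the CPM scale and called lower after size factors with an FDR of 0.000561), and peritubular myoid markers had 1 of 4 higher (66.2 to 90.1 CPM against 76.5 to 102 CPM, Acta2 at 0.28 and not called). By list, the median log2 change was 1.25 for Leydig, 1.60 for macrophage, 0.72 for Sertoli and 0.84 for endothelial markers. It was 0.31 for spermatogonial, 0.06 for peritubular myoid, -0.0025 for spermatocyte and -0.58 for spermatid markers. The 4 endothelial changes ran from -0.21 to 1.81.

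**Figure D5:**
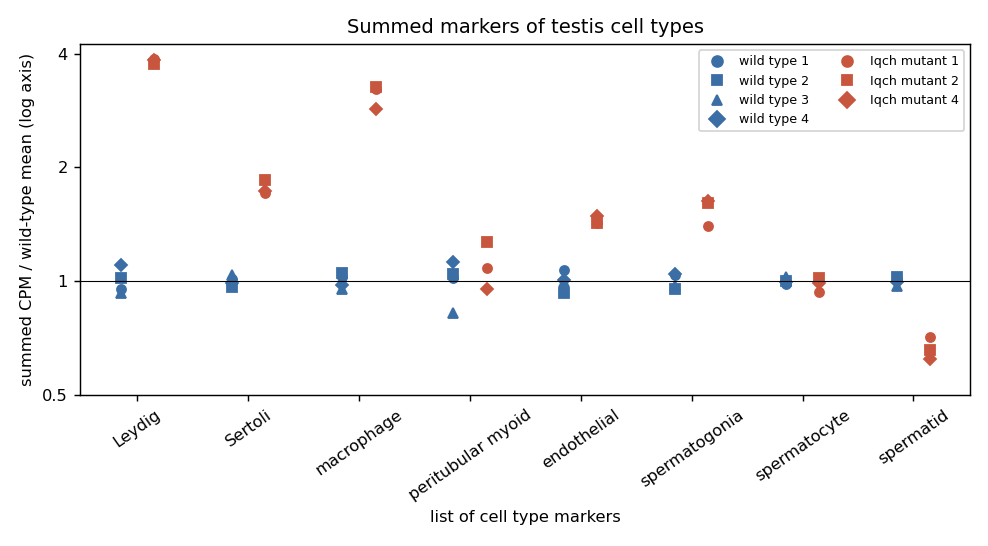
Summed CPM of the markers of each testis cell type in each of 7 libraries, divided by the wild-type mean (log axis); blue marks are wild-type and red marks mutant libraries, with the same shape for the same number in the labels. The Leydig sum is 3.83-fold and the macrophage sum 3.11-fold higher in the mutants, the Sertoli sum 1.76-fold higher, and the spermatid sum falls to 0.663 of the wild-type mean.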

How the data were processed

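Total RNA of whole testes was sequenced in paired-end mode. After trimming (Trimmomatic), the authors used Subread for mapping to GRCm39 and featureCounts for counting per gene. A gene was kept if 2 samples of either genotype held 75 reads of it, and the deposited CPM values sum to 1000000 in each library. The annotation release and the strand setting are not given in the sources used here. All values were whole multiples of 1 step per library (tolerance 0.01 steps). Gene symbols and GRCm39 positions came from GENCODE M39, which held 17045 of the 17127 identifiers.

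The changes were computed on log2(CPM + 0.1) with limma 3.58.1 in R 4.3.3 (moderated by the mean trend) for the 17126 genes that reached 2.2 CPM in 2 samples of either genotype, and FDRs were adjusted over all of them. The log scale with a pseudocount understates the change of scarce genes. The limma p-values set the difference between genotypes against the spread between mice of a genotype, moderated across genes. The code was tested on simulated data. Both genotypes shared numbers in the labels, but same-numbered libraries did not deviate together (correlations 0.03, 0.01 and -0.10 for numbers 1, 2 and 4), so the numbers were not used as pairs. The members and lists were chosen with earlier results of these data known. All members are named. From each pathway list, the called gene with the largest rise and the called gene with the largest fall are named. From each marker list, the gene with the highest mean over all libraries is named. Mrc1, Mylip, Cd14, Star, Ctsb, Akap9, Vps51, Washc5, Tcp1 and Cetn2 were added after their values were seen. Alternatives were other pseudocounts (0.01 and 1), no minimum or one of 5 CPM, size factors, a replicate block and leaving out each library.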

Additional observations from a re-analysis of the deposited data

Results flagged for a closer look

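In 5 of the 55 genes checked, 1 of the 4 wild-type libraries lay far from the other 3 by Dixon's test at its 95% critical value, which chance alone passes in about 1 in 20 groups. Acat2 was highest in wild-type mouse 4, at 13.18 CPM, the other controls lying between 11.11 and 11.28 CPM, and the lowest mutant was still above it. Soat1 was lowest in wild-type mouse 2, at 44.19 CPM against 48.5 to 48.9 CPM. Osbpl1a was lowest in wild-type mouse 1, at 119.7 CPM against 125.2 to 125.7 CPM. Abcg4 was highest in wild-type mouse 3, at 0.548 CPM against 0.291 to 0.329 CPM. The endothelial marker Vwf was highest in wild-type mouse 4, at 18.96 CPM against 18.1 to 18.12 CPM.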

How the results depend on the processing

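Of the 34 genes, 25 changed neither call nor direction under the 13 alternatives run for them (12 for Abcg1, which a minimum of 5 CPM leaves out), and 9 did in at least 1. Size factors turned the uncalled changes of Insig2 to -0.11 and of Nr1h3 to -0.0834, and Nr1h3 ranged from -0.0004 (without wild-type replicate 3) to 0.1093 (without wild-type replicate 4) with each library left out. With the number of the labels as a replicate block, which takes nothing from wild-type mouse 3, Nr1h3 was again -0.0004, and 12 enzymes were called higher (14 without the block), Mvk and Sqle being lost; the block was used although the numbers did not pair the mice. Synthesis enzymes called lower numbered 0 to 1 with each library left out, Fdft1 being the gene in question. Size factors raised the other sterol genes called lower from 6 to 12 of 54. Among all genes the share called lower went from 14.2% to 25.1%. Dividing by size factors moves log2 changes by nearly the same amount in all but the scarcest genes, and the median of all genes fell by 0.13. The cause of the remaining shifts was not tested, beyond the fewer samples where a library was left out. The planned count tests (edgeR and DESeq2) were not run, because the table has too few low values for reads recovered from the CPM steps to be checked as counts. With 3 mutant libraries, changes of the size of Fdps, Cyp51, Scarb1 and Stard4 lay at the edge of what was called.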
